A study of Mus musculus with 9 samples.

Results

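The genes described here are the 79 cytosolic ribosomal protein genes measured in brown adipose tissue of mice lacking growth hormone releasing hormone (GHRH) and of their littermates. They were chosen by symbol, as Rpl, Rps or Rplp followed by a number and at most 1 of the letters a, l or x, with a value above 0 in every library. Of 24356 symbols in the series, 80 had such a name and 79 passed. The gene left out, Rpl10l, was listed at 0 in all 9 libraries. The 79 genes comprise 45 genes of the large 60S subunit, 3 genes of its stalk (Rplp0, Rplp1 and Rplp2) and 31 genes of the small 40S subunit. The rule used no difference between libraries.

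RNA was sequenced from brown adipose tissue of 9 mice, 1 library per animal: 3 WT females, 2 KO females, 2 WT males and 2 KO males. KO mice carry the GHRH deletion in all tissues, and WT mice are littermates from the same colony, of mixed C57BL6 and 129SV origin. No group received a treatment, and age is not given in the sources used here. Values are FPKM (fragments divided by the length of the transcript and by the size of the library), so levels can be set side by side between genes. Between libraries, each value is a share of its library and depends on what else that library holds. A log2 difference of 1 is a 2-fold change.

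Some facts about the libraries touch every result. Ghrh, the deleted gene (chr2:157329497-157347506), goes against the genotype labels. It was detected in the 4 libraries labelled KO, with FPKM of 0.846 and 0.233 in females and 0.799 and 0.470 in males, and it was listed at 0 in the 5 labelled WT. A value per symbol does not show which exons these fragments came from. KO and WT below therefore mean the libraries so labelled. FPKM summed to between 380558 and 443569 per library, and depth relative to WT female 1, read from the step of 1 fragment among low values, was 0.917 to 1.14. The 9 brown adipocyte markers, Ucp1 among them, were above 0 in every library and summed to 6016 to 8274 FPKM. KO male 1 stood apart by its immune cell markers. KO male 2 had the highest values of Rn45s, the precursor of ribosomal RNAs, and of the microRNA entries listed with it. Both are described with the results they accompany.

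Ribosomal proteins are the protein part of the ribosome, which carries a single copy of most of them. The small subunit reads the messenger RNA, the large subunit joins amino acids, and the stalk proteins recruit the factors that drive translation. Their messenger RNAs are among the most abundant in most cells and are made in step. Many begin with a 5′ terminal oligopyrimidine (TOP) tract, a C followed by further C and T bases, through which growth signals acting by way of mTORC1 and LARP1 set how strongly they are translated. A few genes have paralogs used in particular tissues: Rpl3l takes the place of Rpl3 in skeletal and heart muscle, Rpl39l is known from the testis, and Rps27l is a target of p53.

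Many of the genes share a feature at their start sites that the rule did not use. RefSeq start windows (GRCm38.p6) were at hand for 58 of the 79 genes. Runs of at least 7 pyrimidines with C as the leading base were read on the gene's own strand. A run was counted if its leading C lay within 10 bases of an annotated start. Runs that began further upstream were not counted, even where they reached the start, as in Rpl7a and Rpl34. A counted run was found in 25 of the 58 (43.1%). By the same rule it was found in 12.87% of all 27025 genes with a window and in 13.83% of the 10943 other genes tested here. The windows below run from 40 bases before the start through 20 bases from it, 5′ to 3′, with the counted run in capitals. They are shown because they hold 4 genes with a counted run from both subunits and the stalk, and then the paralogs Rps27l and Rpl3l. These paralogs have no counted run at either of 2 annotated starts (the upstream one is shown). The Rps27l window does hold a pyrimidine run with a leading C, which begins more than 10 bases before the start.
Rps6 (chr4:86857348-86857407, minus strand): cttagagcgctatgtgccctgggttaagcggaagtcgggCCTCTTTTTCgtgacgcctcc
Rplp2 (chr7:141447611-141447670, plus strand): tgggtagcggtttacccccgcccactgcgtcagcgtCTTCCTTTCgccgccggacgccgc
Rpl13a (chr7:45128726-45128785, minus strand): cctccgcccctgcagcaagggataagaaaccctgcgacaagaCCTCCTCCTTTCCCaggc
Rps27 (chr3:90213629-90213688, minus strand): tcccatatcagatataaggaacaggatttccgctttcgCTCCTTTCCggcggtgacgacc
Rps27l (chr9:66946046-66946105, plus strand): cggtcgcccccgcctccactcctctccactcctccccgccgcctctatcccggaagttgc
Rpl3l (chr17:24727786-24727845, plus strand): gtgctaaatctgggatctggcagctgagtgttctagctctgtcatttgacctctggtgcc
A letter match is a description of the window and not of a working site.

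Most of the 79 genes were expressed at high levels. Mean FPKM over the 9 libraries had a median of 247.9 over the genes. It was at least 100 for 68 of the 79, and 70 genes lay at 79.7 or above. The highest was Rplp2, a stalk protein, at a mean of 1176 FPKM. It was followed by Rpl41 at 627.5 FPKM, the smallest protein of the ribosome, and by Rplp1, the partner of Rplp2 in the stalk, at 625.02 FPKM. By subunit the median of the gene means was 231.5 FPKM for the 60S, 269.3 for the 40S and 625.02 for the stalk. At the low end stood Rpl39l at 1.16, Rps27 at 2.70 and Rps4l at 11.6 FPKM, followed by Rpl3l, Rpl30, Rps15a, Rpl34, Rpl26 and Rpl22 at 16.4 to 36.7 FPKM. Low values of members that share sequence with copies elsewhere cannot be read simply as low expression, as described further on for Rps27. Among these low genes, Rpl39l and Rpl3l shared no stretch of 50 bases with another annotated gene. For the others the shared part ran from 5.16% (Rpl22) to 46.2% (Rps27). The part of shared sequence in the low values was not tested.

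The genes moved together from library to library. In each library, the log2 FPKM of each gene was set against that gene's own mean over the 9 libraries, and the median over the 79 genes was taken. This median was 0.22, -0.07 and -0.05 in the 3 WT females and -0.11 and -0.02 in the 2 KO females. It was -0.21 and 0.03 in the 2 WT males, and 0.58 and -0.38 in the 2 KO males. The KO males thus held the highest and the lowest of the 9 medians, with both WT males between them. Over all 14675 genes tested, those above 0 in every library, the same median stayed between -0.17 and 0.10. The spread of a gene around the family's median, as an SD over libraries on the log2 scale, was 0.096 for the median gene and 0.028 for Rpl10, the closest of all. It exceeded 0.3 for Rps27l, Rps27, Rpl30, Rpl26, Rps4l, Rpl3l and Rpl39l.

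**Figure D1:**
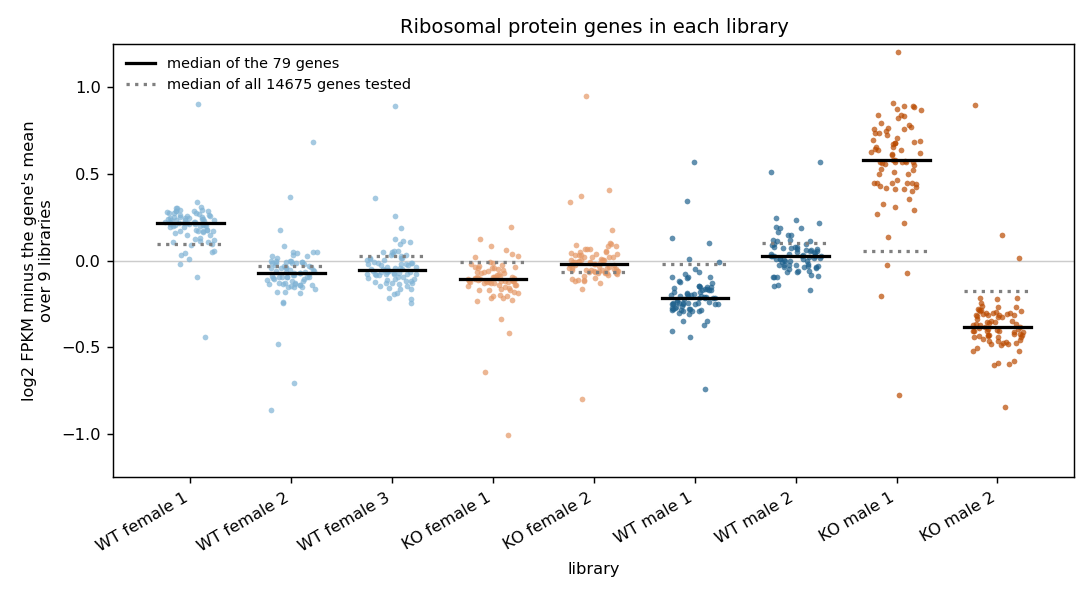
Each point is 1 of the 79 ribosomal protein genes in 1 library, as log2 FPKM minus that gene's mean over the 9 libraries (vertical axis), black bars are the median of the 79 genes and dotted bars the median of all 14675 genes tested. 7 points lie outside the plotted range. The genes form a narrow band in each library, highest in KO male 1 (median 0.58) and lowest in KO male 2 (-0.38).

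KO male 1 was the highest of the 9 libraries for 70 of the 79 genes (88.6%), against 28.3% of all genes tested. KO male 2 was the lowest for 71 of the 79 (89.9%), against 26.9%. Both held for 66 genes, and for 68 genes both WT males lay between the 2 KO males. The shares of all genes tested with these joint patterns were not computed. The ratio of KO male 1 to KO male 2 had a median of 1.94 over the genes. Rpl12, a 60S protein near the stalk base, shows the pattern at its strongest among the abundant genes. It was at 255.0, 210.9 and 204.9 FPKM in WT females, 221.1 and 222.7 in KO females, 183.4 and 219.2 in WT males, and 537.6 and 176.5 in KO males. All libraries but KO male 1 thus lay within a narrow range, and KO male 1 was 2.54 times the mean of the other 8. Rps6, the 40S protein phosphorylated by S6 kinase, was at 215.1, 170.4 and 186.1 FPKM in WT females and 179.6 and 185.3 in KO females. It was at 153.4 and 191.3 FPKM in WT males and at 315.2 and 138.6 in KO males, again with both extremes in the KO males. The ratio of KO male 1 to the mean of the other 8 had a median of 1.56 over the 79 genes. By subunit it was 1.54 for the 60S, 1.67 for the 40S and 1.64 for the stalk.

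The 9 genes that did not peak in KO male 1 were of several kinds. Rpl24, Rpl36 and Rplp2 were highest in WT female 1 while still above the mean of the others in KO male 1, by 1.18, 1.22 and 1.10 times. Rps27 was highest in WT male 2 and stood at 1.35 times the mean of the others. Rpl26 and Rpl30, both of the 60S, were at 0.911 and 0.923 times the mean of the other 8. The remaining 3 are paralogs or copies: Rps27l was at 0.849 times, Rps4l at 0.516 times and Rpl39l at 0.042 times. Across the 79 genes, which all share the same 9 libraries, the ratio in KO male 1 had a Spearman correlation of 0.23 with transcript length and of 0.0085 with the share of sequence held in common with other genes. The 25 genes with a counted pyrimidine run at the start had a median deviation of 0.57 in KO male 1 and -0.40 in KO male 2. The 33 with a window but no counted run had medians of 0.61 and -0.35, and the sets lay close in both libraries. Genes such as Rpl7a and Rpl34, whose run began further upstream, are among the 33.

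Markers of some other cells were also high in KO male 1. The 11 lymphocyte markers, which include the T cell receptor subunit Cd3e and the B cell gene Cd79a, were all highest in KO male 1. They summed to 270.6 FPKM there, against 2.21 to 5.49 in the other 8 libraries. Cd3e was at 41.7 FPKM in KO male 1 and at most 1.10 elsewhere, Cd79a at 36.8 and at most 0.730, and Cd3d was at 0 in WT male 1. The 7 macrophage markers measured summed to 405.3 FPKM in KO male 1 and to 24.99 to 100.4 in the others. Most of that sum was Lyz2, at 353.9 FPKM in KO male 1 and at most 70.6 elsewhere. Of the 7, 6 were highest in KO male 1. The exception, Cd163, was at 1.40 FPKM there and at 2.58 in WT male 2. The 6 dividing cell markers summed to 5.55 FPKM there and to 0.411 to 1.12 elsewhere, with Bub1 at 0 in 2 libraries. The 12 skeletal muscle markers, described further on, summed to 12715 FPKM in KO male 1 and to 449 to 6485 in the other 8. Of these 12 markers, 10 were highest in KO male 1. In bulk tissue, more cells of a type and more RNA per cell cannot be told apart, and the part of these cells in the ribosomal protein values was not tested. The 118 other short and abundant genes, of under 1000 bases and at least 100 FPKM, had a median deviation of -0.16 in both KO male 1 and KO male 2.

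**Figure D2:**
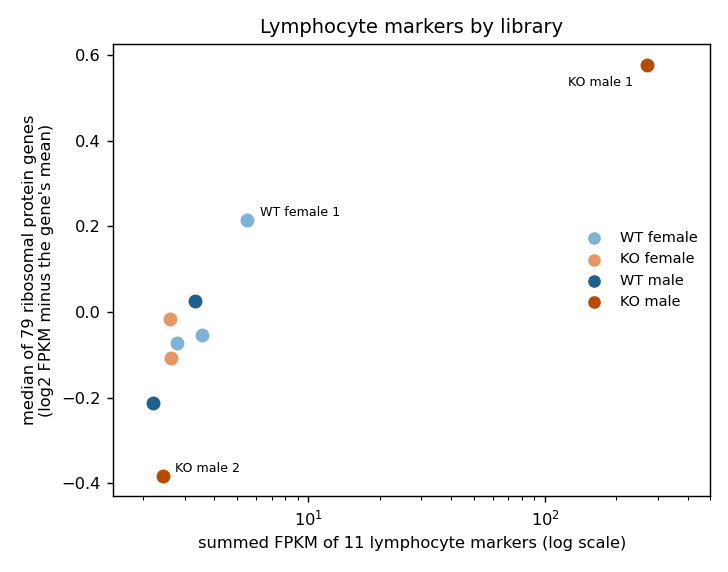
Each point is 1 library, with the summed FPKM of 11 lymphocyte markers on a logarithmic horizontal axis and the median deviation of the 79 ribosomal protein genes (log2 FPKM) on the vertical axis, coloured by group. KO male 1 lies far to the right at 270.6 FPKM and a median of 0.58. The other 8 libraries lie between 2.21 and 5.49 FPKM.

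In KO male 2, where the family was lowest, Rn45s and some microRNA entries took a larger part of the library. Rn45s, the precursor of ribosomal RNAs, was at 4827 FPKM in KO male 2 and at 1809 to 3282 in the others. With the microRNA entries Mir6236, Mir2137 and Mir6240, it summed to 98515 FPKM in KO male 2 and to 15967 to 44529 in the other 8. Most of the sum came from the microRNA entries, with Mir6236 at 45733 FPKM in KO male 2. They are called microRNA entries by their symbols, and which RNA their fragments came from was not tested. The RNA had been selected for poly A tails before library construction. The 79 genes made up 3.82% of all FPKM in KO male 2 and 7.63% in KO male 1. In the other 7 libraries they made up 4.74% to 6.17%. The median of all genes tested was also lowest in KO male 2, at -0.17, and the ribosomal protein median lay 0.21 below it. The part of Rn45s and the microRNA entries in these values was not tested.

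The main comparison asked whether ribosomal protein genes differ between KO and WT with the sexes averaged. Each gene was tested on its own, and no test of the family as a whole was run. Of the 79 genes, 1 (Rpl3l) was called by limma at an adjusted p under 0.05, against 3.6% of all genes tested in either direction and 1.43% as higher in KO. The median log2 difference, KO minus WT, was 0.06 over the 79 genes and -0.07 over all genes. Of the 79 values, 57 were positive and 22 negative, and 37.5% of all genes were positive. Rpl3l was higher by 2.33 (SE 0.49, adjusted p = 0.0489). Rps27l had the next lowest p, at -0.18 (SE 0.06, adjusted p = 0.160), followed by Rpl39l at -1.47 (SE 0.94, adjusted p = 0.448). The other genes among the 10 with the lowest p were Rplp2, Rpl41, Rpl30, Rpl26, Rpl12, Rpl19 and Rpl7a, with differences between -0.39 (Rpl26) and 0.31 (Rpl12) and adjusted p of 0.542 or more. The extremes of the log2 difference were Rpl3l, Rpl12 and Rpl4 (0.18) at the top and Rpl39l, Rpl26 and Rpl30 (-0.24) at the bottom. Of these, Rpl3l alone passed the test.

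The family median near 0 averaged unlike libraries. Without KO male 1, it became -0.19 against -0.15 over all genes, with 2 positive and 77 negative values and 0 genes called by limma (3.01% of all genes were). At an unadjusted p under 0.05 that fit gave 18 of the 79, against 26.4% of all genes. Without KO male 2 it became 0.30, and 11 genes were called, 10 of them higher and Rpl39l lower, against 7.53% of all genes in that fit. Rpl4, the 60S protein lining the exit tunnel, and Rps4x, the X-linked 40S protein, were then among the called genes, at 0.46 and 0.41. The sign and size of the family difference thus turned on which KO male was kept. Of all genes, 27.5% had a positive difference without KO male 1 and 48.6% without KO male 2. With KO male 1 left out and the library medians set equal, an alternative chosen after the values were seen, the family median was -0.03 against 0.02 over all genes.

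In females, the median difference between KO and WT was small and its sign turned on 1 library. Of the 79 genes, 0 were called by limma (0.0204% of all genes were), and 1 had an unadjusted p under 0.05 (12.7% of all genes had). The median difference was -0.09, against -0.07 over all genes. Of the 79 values, 10 were positive and 69 negative, and 39.8% of all genes were positive. Without WT female 1, the WT female with the highest family median, the median difference was 0.0016. That fit gave 40 positive and 39 negative values (44.1% of all genes were positive). With median centring the median difference was 0.02, against 0.04 over all genes. There 48 values were positive and 31 negative (55.0% of all genes were positive). For 38 genes, both KO females lay within the range of the 3 WT females (22.7% of all genes tested did), and for 72 genes both lay below WT female 1 (53.4%). Rplp0, the stalk base protein often used as a reference in qPCR, was at 422.1, 343.5 and 341.0 FPKM in WT females and 336.7 and 355.1 in KO females, so the groups overlapped. The genes with the lowest p were Rpl3l (1.62, adjusted p = 0.375), Rpl30 (-0.41), Rpl41 (-0.26), Rpl22 (-0.20) and Rps27 (0.33), the last 4 with limma adjusted p of 0.603 to 0.770.

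In males, 0 genes were called by limma (0.0136% of all genes were), with 2 at an unadjusted p under 0.05 (16.6% of all genes). The median difference was 0.21, against -0.08 over all genes, with 66 positive values (39.9% of all genes were positive). Rpl3l (3.04, SE 0.73, adjusted p = 0.104), Rps27l (-0.34, SE 0.09, adjusted p = 0.123) and Rpl39l (-2.76, SE 1.38, adjusted p = 0.382) had the lowest p, followed by Rpl12 (0.62) and Rpl13 (0.40). Rps27l was 1 of the 13 genes with a negative difference, Rplp2 (-0.20) and Rpl41 (-0.15) being others, and stood at 99.5 and 93.3 FPKM in KO males and 123.0 and 120.9 in WT males. The 2 groups of 2 libraries did not overlap, and the share of all genes for which this held was not computed. The 2 KO males lay close to each other, whereas the family lay far apart in them. Without KO male 1 the median in males was -0.29. Without KO male 2 it was 0.68, and 36 of the 79 genes were called, against 8.81% of all genes in that fit. The difference between the sexes in the KO effect, the interaction, gave 0 genes called by limma (0% of all genes were) and 1 at an unadjusted p under 0.05 (7.01% of all genes), Rps27l at -0.32 (adjusted p = 0.688). Its family median was 0.30 with 74 positive values (48.75% of all genes were positive). Without KO male 1 it was -0.20, and without KO male 2 it was 0.80 with 18 of the 79 genes called, against 4.91% of all genes.

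**Figure D3:**
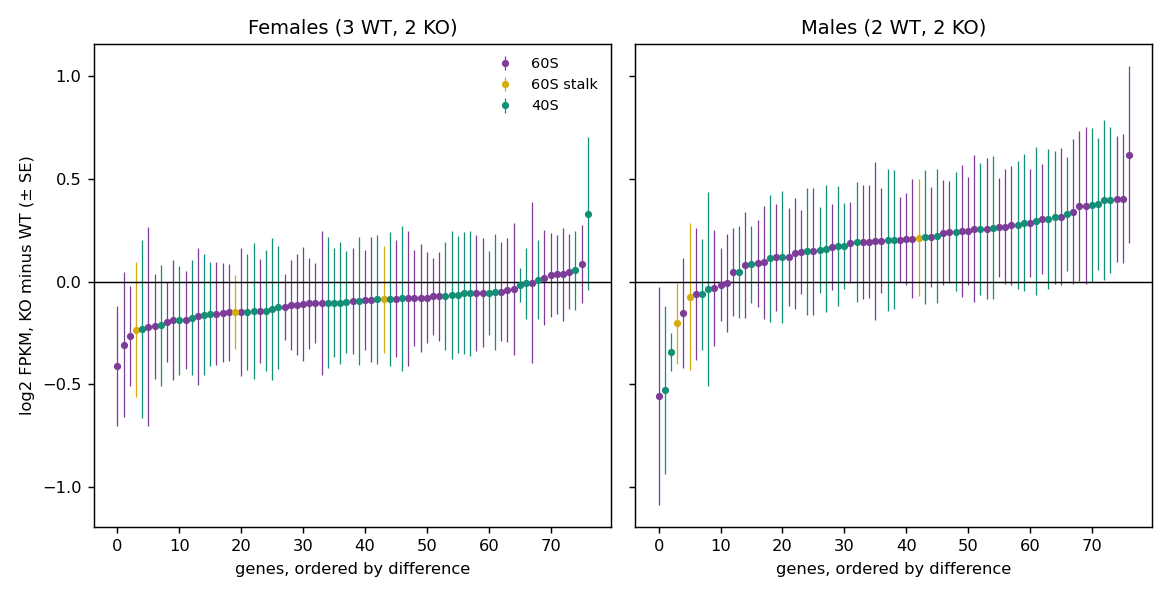
Log2 difference in FPKM, KO minus WT, with its SE from limma, for the ribosomal protein genes in females and in males, ordered by size and coloured by subunit, with the horizontal axis giving the rank. Rpl3l and Rpl39l are left out for scale. Most female values lie below 0 (median -0.09 over the 79 genes, 0.0016 without WT female 1). Most male values lie above 0 (median 0.21, -0.29 without KO male 1). The SE is of like size in both sexes, as limma used 1 estimate of the spread per gene for all 4 groups. For Rps6 it was 0.30 in females and 0.33 in males.

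Between males and females, with genotypes averaged, by limma 0 genes were called (0.0136% of all genes were), and 1 had an unadjusted p under 0.05 (10.4% of all genes had). The median male minus female difference was 0.03, against 0.01 over all genes. It was -0.21 with 77 negative values without KO male 1, and 0.26 with 75 positive values without KO male 2. Of all genes, 38.7% were positive in the former fit and 58.6% in the latter. Rps27l (-0.14, adjusted p = 0.477), Rps4l (-0.63), Rps24 (0.18) and Rpl39 (0.21) were among the 5 genes with the lowest p. Of the 79 genes, 4 lie on the X chromosome, Rps4x and Rpl39 among them. The linear model of the study's methods, with KO and female as reference and an unadjusted p under 0.01, gave 0 of the 79 for genotype (3.43% of all genes), 1 for sex (2.79%) and 0 for the interaction (1.66%). The 1 gene was Rps27l, in the comparison of KO males with KO females. In this coding the genotype term compares KO with WT in females only, and the methods do not state the reference levels. Without KO male 2, the counts for sex and interaction were 18 and 14 of the 79, against 8.62% and 6.26% of all genes.

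Rpl3l was the one gene with a difference between genotypes. It encodes the muscle paralog of Rpl3, a core 60S protein next to the site of peptide bond formation. It was at 27.8, 14.8, 45.1 and 27.7 FPKM in the KO libraries (females 1 and 2, then males 1 and 2) and at 11.04, 6.15, 4.27, 9.16 and 2.01 in the WT libraries (females 1 to 3, then males 1 and 2). All KO libraries lay above all WT libraries, with means of 28.9 ± 12.4 (n = 4) and 6.53 ± 3.64 FPKM (n = 5, SD). The two-sided exact permutation p was 0.00794, the smallest this design can give. It was the 1 gene of 79 whose KO libraries were all above the WT libraries (3.03% of all genes tested were), and 0 of 79 were all below (6.04%). Rpl3 itself stood at 184 ± 54.4 FPKM in KO and 185 ± 14.6 in WT libraries, so the groups overlapped. The limma call was narrow: the adjusted p of Rpl3l ran from 0.0125 to 0.177 over 19 alternatives and was under 0.05 in 5 of them. With 1 library left out it was under 0.05 only without KO male 2 or without WT male 1, while its log2 difference stayed between 1.78 and 2.88.

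Skeletal muscle markers moved with Rpl3l. The mean log2 FPKM of 12 markers, such as the muscle actin Acta1 and the fast myosins, was 8.44 ± 0.92 in KO and 6.25 ± 0.94 in WT libraries (SD, n = 4 and 5; exact permutation p = 0.00794). The 12 markers summed to 2780 to 12715 FPKM in KO and to 449 to 2404 in WT libraries. Of the 12, 8 were higher in every KO library than in any WT library, against 3.03% of all genes tested. With Rpl3l measured against this mean, an alternative added after the values were seen, the groups overlapped. Log2 Rpl3l minus the marker mean was -3.69 ± 0.26 in KO and -3.78 ± 0.16 in WT libraries, a difference of 0.08 (exact permutation p = 0.556). Over the 9 libraries this value stayed between -4.00 and -3.33, while Rpl3l itself ranged from 2.01 to 45.1 FPKM. Eef1a2, the translation elongation factor of muscle and neurons, showed a like pattern at 63.7, 36.7, 101.7 and 67.2 FPKM in KO and 28.8, 17.0, 12.3, 21.7 and 4.11 in WT libraries (log2 difference 2.27, SE 0.50, limma adjusted p = 0.0535). Its KO and WT libraries did not overlap (3.03% of all genes tested were higher in every KO library).

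**Figure D4:**
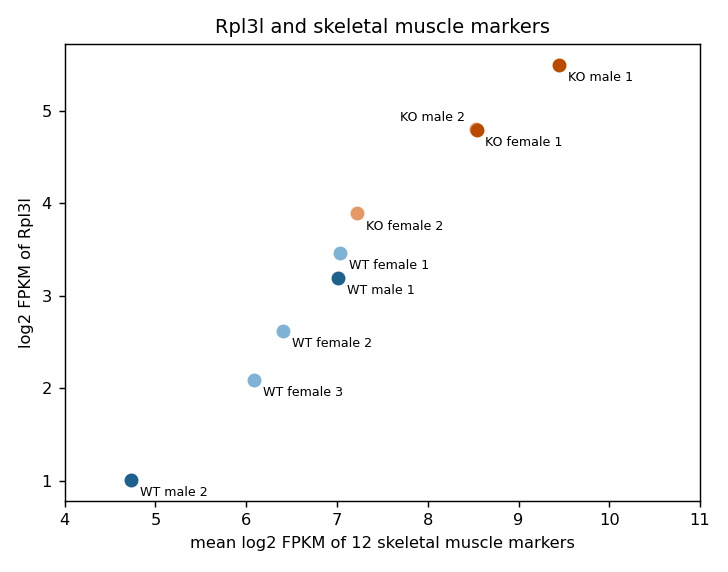
Each point is 1 of the 9 libraries, with the mean log2 FPKM of 12 skeletal muscle markers on the horizontal axis and the log2 FPKM of Rpl3l on the vertical axis, coloured by group. The libraries lie along 1 rising line, from WT male 2 (Rpl3l at 2.01 FPKM) to KO male 1 (45.1 FPKM), with the 4 KO libraries at the upper end.

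The coding sequences of Rpl3 and Rpl3l, read from GRCm38 with the GENCODE M21 annotation, differ at 35 of the leading 150 bases, and Rpl3l shares no stretch of 50 bases with any other annotated gene. The 150 bases are shown because they let a reader see how far the paralogs have diverged, with the bases of Rpl3l that differ from Rpl3 in capitals.
Rpl3 (chr15:80077791-80091868, minus strand): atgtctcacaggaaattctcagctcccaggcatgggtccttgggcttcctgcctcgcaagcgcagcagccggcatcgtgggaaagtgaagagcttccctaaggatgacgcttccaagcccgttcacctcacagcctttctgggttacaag
Rpl3l (chr17:24727820-24736143, plus strand): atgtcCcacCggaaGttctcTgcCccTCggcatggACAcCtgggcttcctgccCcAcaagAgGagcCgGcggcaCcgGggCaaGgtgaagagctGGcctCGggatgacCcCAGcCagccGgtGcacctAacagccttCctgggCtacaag

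The 4 paralog pairs measured in every library were compared as log2 ratios of the paralog to its partner, with exact permutation tests adjusted over the 4 pairs. The ratio of Rpl3l to Rpl3 was -2.74 ± 0.55 in KO and -5.05 ± 0.97 in WT libraries (SD, n = 4 and 5; exact p = 0.00794, adjusted p = 0.0317), so Rpl3l remained the minor form in all libraries. Rpl39l to Rpl39 differed by -1.30 between KO and WT (exact p = 0.421), Rps27l to Rps27 by -0.13 (exact p = 0.667) and Rps4l to Rps4x by -0.26 (exact p = 0.667), each with an adjusted p of 0.667. KO male 1 held the lowest Rpl39l ratio, with Rpl39l at 0.055 FPKM there and at 0.396 to 3.15 elsewhere. Without KO male 1, the Rpl39l difference was 0.02, the Rps27l difference 0.06 and the Rps4l difference 0.23. The Rpl3l difference was then 2.25.

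Many of these genes share sequence with processed copies elsewhere in the genome, and how the authors' counting split such fragments is not given in the sources used here. Over coding transcripts, the share of 50-base stretches also found in another annotated gene ranged from 0% to 85.5%, with a median of 34.5%, and exceeded 50% for 20 of the 79 genes. It was 0% for Rpl3l and Rpl39l, and highest for Rpl36a. Mean FPKM and this share had a Spearman correlation of 0.30 across the 79 genes, which are not independent. Rps4l is annotated as a transcribed processed pseudogene, so its values are those of a non-coding copy.

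**Figure D5:**
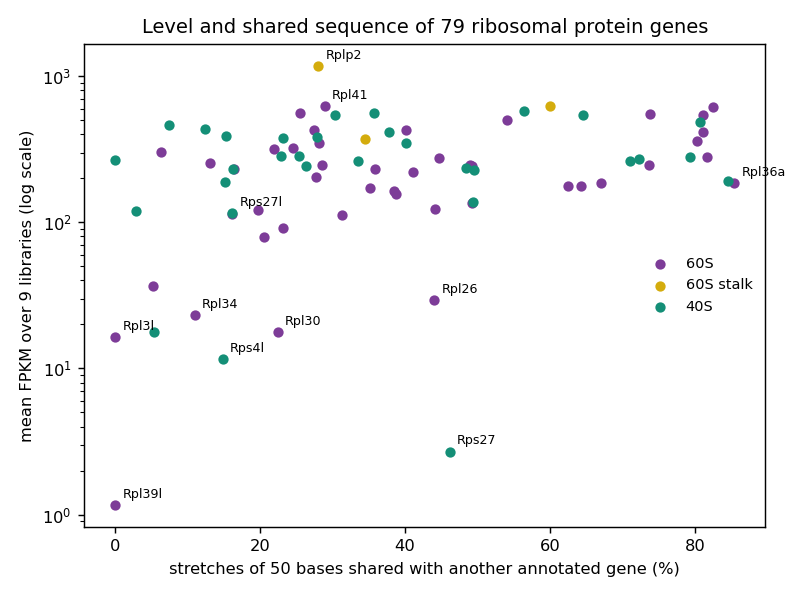
Each point is 1 of the 79 genes, with the percentage of its 50-base stretches also found in another annotated gene on the horizontal axis and its mean FPKM over 9 libraries on a logarithmic vertical axis, coloured by subunit. Most genes lie between 79.7 and 627.5 FPKM at any share, and Rps27 (2.70 FPKM) lies far below other 40S genes.

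Rps27 has a copy with the same coding sequence. It was listed at 1.45 to 3.70 FPKM, whereas the median of the 40S genes was 269.3 FPKM. Rps27rt, an intronless copy on chromosome 9 (chr9:114982366-114982739), was at 480.5, 404.2 and 409.3 FPKM in WT females, 361.1 and 398.0 in KO females, 341.1 and 437.7 in WT males, and 919.9 and 305.6 in KO males. This is the level and the library pattern of the family. The coding sequence of Rps27rt is identical to that of Rps27 over all 255 bases, and 46.2% of the 50-base stretches of Rps27 occur in Rps27rt. How fragments from the shared part were assigned to the 2 entries is not given in the sources used here. Rps27l differs from Rps27 at 61 of 255 bases, and these are in capitals below.
Rps27 and Rps27rt: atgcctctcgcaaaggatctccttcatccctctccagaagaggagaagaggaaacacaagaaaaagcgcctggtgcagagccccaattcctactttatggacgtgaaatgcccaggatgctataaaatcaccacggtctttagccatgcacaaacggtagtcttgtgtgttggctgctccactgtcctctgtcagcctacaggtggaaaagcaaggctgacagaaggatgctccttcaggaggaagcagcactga
Rps27l: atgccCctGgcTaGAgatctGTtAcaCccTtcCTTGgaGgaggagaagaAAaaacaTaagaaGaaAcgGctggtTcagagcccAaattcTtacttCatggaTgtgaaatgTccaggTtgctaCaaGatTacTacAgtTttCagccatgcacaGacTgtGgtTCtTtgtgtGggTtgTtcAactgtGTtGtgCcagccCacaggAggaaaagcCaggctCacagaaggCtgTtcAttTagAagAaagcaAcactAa
The ratio of Rps27l to Rps27 above rests on the low Rps27 entry. Rps27l itself was at 119.2, 129.6 and 113.2 FPKM in WT females, 116.8 and 121.6 in KO females, 123.0 and 120.9 in WT males, and 99.5 and 93.3 in KO males. It had the smallest spread of the 79 genes among WT libraries (SD 0.071 on the log2 scale), and both KO males lay below all other libraries. Rpl34 shows the same division of values, at 16.5 to 30.9 FPKM against 234.6 to 505.2 for its processed copy Rpl34-ps1.

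Other genes of the translation machinery, from lists drawn up for this comparison, gave 0 called genes between KO and WT with the sexes averaged, in all 9 lists. The 8 other cytosolic ribosomal protein genes tested, whose names fall outside the rule, moved like the 79, with a median deviation of 0.64 in KO male 1 and -0.34 in KO male 2. Of these 8, 6 were highest in KO male 1 and 6 lowest in KO male 2. The family's medians in KO male 1 were not reached by the factors that build ribosomes. The deviation there was 0.09 for 14 RNA polymerase I genes, 0.13 for 56 genes of 40S assembly and pre-rRNA processing, 0.21 for 55 genes of 60S assembly and 0.04 for 37 initiation factors. It was 0.36 for 13 elongation and termination factors, 0.22 for 11 other TOP transcripts and 0.32 for 6 genes of ribosomal protein sensing by Mdm2 and p53, and -0.07 for 8 regulators of TOP translation and growth. In KO male 2 the other TOP transcripts, such as the translation-linked Tpt1 and Naca, stood at -0.43, near the family's -0.38.

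Within those lists, the genes with the lowest p give the size of what was seen between KO and WT, and none passed the limma test. Eif6, which keeps free 60S subunits from joining 40S subunits, had a log2 difference of 0.37 (SE 0.10, adjusted p = 0.0799), with KO libraries at 26.0 ± 2.24 and WT libraries at 20.0 ± 1.96 FPKM. Rps6kb1, the S6 kinase that phosphorylates Rps6, was at 5.58 ± 0.079 FPKM in KO and 6.81 ± 0.93 in WT libraries (log2 difference -0.31, SE 0.07, adjusted p = 0.0615). Pabpc1, the poly A binding protein, had a difference of -0.38 (adjusted p = 0.130). Eif4e2, a cap-binding protein, and Rrn3, which brings RNA polymerase I to ribosomal RNA genes, stood at -0.21 (adjusted p = 0.123) and -0.24 (adjusted p = 0.110). Taf1c, a subunit of the promoter factor of RNA polymerase I, was at 0.54 (SE 0.16, adjusted p = 0.0996). Cdkn1a, a p53 target that rises when free ribosomal proteins bind Mdm2, was at -0.42 (adjusted p = 0.205). In the comparison of males with females, 1 initiation gene was called: the X-linked Eif2s3x was lower in males, at -0.66 (SE 0.06, adjusted p = 0.0262).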

How the data were processed

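RNA from brown adipose tissue of 9 mice (3 WT females, 2 WT males, 2 KO of each sex) had been poly A selected and sequenced as pairs of 50 bases. The sources name both HiSeq2000 and HiSeq2500. The authors deposited 1 table of FPKM per library. The submitters' processing notes and the methods name bcl2fastq 1.8.4, TopHat2 2.0.11, Bowtie and mm10 (GRCm38). Fragment counts are not given in the sources used here, so depth is known only as a ratio between libraries.

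Of 24356 symbols, the 14675 above 0 FPKM in all libraries were tested on log2 FPKM with limma 3.58.1 (R 4.3.3), with a mean per group and a mean-variance trend. The p-values were adjusted by Benjamini-Hochberg over all tested genes, at a threshold of 0.05. The linear model of the methods used an unadjusted p under 0.01. Exact permutation tests used all 126 splits into 4 and 5 libraries, two-sided. The limma code was tested on simulated data. Positions and transcripts came from GENCODE M21 and start windows from RefSeq. Alternatives covered pseudocounts of 1 and 0.1, filters, library scaling, model terms, coding and each library left out. Python 3.11.15 with pandas 2.3.3, numpy 2.4.6 and matplotlib 3.10.9 did the rest.

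The members and the lists of genes were chosen with earlier results of these data known. The genes named are the paralog pairs, the stalk genes, Rps6, Ghrh, the 5 members with the lowest limma p in each comparison (10 with the sexes averaged), the 3 members at each end of the difference and of the mean FPKM, and the 3 genes with the lowest p of each pathway list, as far as the text uses them. Rpl13a, Rps16, Rpl24, Rpl36, Rpl34, Rpl36a, Rps15a, Rpl10 and the copies Rps27rt and Rpl34-ps1 were named after their values were seen. No protein sequences were used here, and a member that the rule names is not reported here.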

Additional observations from a re-analysis of the deposited data

Results flagged for a closer look

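Within the 4 KO libraries, KO male 1 lay far above the other 3 for 4 of the 79 genes by Dixon's criterion, in which the gap to the nearest library is set against the whole range: Rpl12 at 537.6 FPKM, Rpl4 at 403.0 FPKM, Rps16 at 622.5 FPKM and Rps24 at 677.2 FPKM. The other 3 KO libraries spanned 176.5 to 222.7 FPKM for Rpl12 and 312.5 to 348.7 FPKM for Rps24. Within the 5 WT libraries, Rpl39l was far higher in WT male 2, at 3.15 FPKM. Chance would put about 1 in 20 groups past this criterion, and 4 of the 79 genes is close to that rate. The share of all genes tested that passed it was not computed. The genes also share libraries, so the 4 genes are not separate observations.

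The same criterion was passed by the summed lymphocyte markers in KO male 1 (270.6 FPKM, next KO library 2.63), by the summed macrophage markers there (405.3 FPKM, next 35.2) and by the summed dividing cell markers there (5.55 FPKM, next 0.728). Among WT libraries, WT female 1 was apart for the dividing cell markers, at 1.12 FPKM. WT female 1 was also the library with the highest median of the 79 genes after KO male 1.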

How the results depend on the processing

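With sexes averaged, 1 ribosomal protein gene (Rpl3l) was called. The count was 0 with a pseudocount of 0.1, without a filter, with median centring, without the interaction, with array weights, without a trend, and without KO male 1 combined with median centring, and ran from 0 to 11 with single libraries left out. With single libraries left out, the other limma counts ran from 0 to 36 in males, 0 to 4 between the sexes and 0 to 18 for the interaction, and stayed at 0 in females. The highest counts came without KO male 2. The linear model gave 1 gene for genotype with male as reference, 0 for sex with median centring or sum-to-zero coding, and 0 to 18 for sex and 0 to 14 for the interaction with single libraries left out. The family median ran from -0.19 (without KO male 1) to 0.30 (without KO male 2), and the pooled SD of that median between libraries of a group was 0.33.

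Leaving out single libraries turned the direction of the following genes, none of which passed the test with all libraries. Their log2 differences ran from -0.094 to 0.71 for Rpl12, -0.12 to 0.42 for Rpl13, -0.023 to 0.32 for Rpl19, -0.23 to 0.13 for Rpl22, -0.27 to 0.21 for Rpl3, -0.48 to 0.012 for Rpl30, -0.37 to 0.26 for Rpl39, -0.11 to 0.46 for Rpl4, -0.44 to 0.023 for Rpl41 and -0.038 to 0.28 for Rpl7a. They ran from -0.19 to 0.31 for Rplp0, -0.48 to 0.17 for Rplp1, -0.16 to 0.33 for Rps21, -0.16 to 0.40 for Rps24, -0.42 to 0.22 for Rps27, -0.34 to 0.068 for Rps4l, -0.26 to 0.41 for Rps4x and -0.18 to 0.41 for Rps6. Median centring gave 0.0051 for Rpl22, 0.026 for Rpl3 and 0.0040 for Rpl39, and quantile normalization gave 0.0053 for Rpl22. Median centring without KO male 1 gave -0.019 for Rplp0, 0.23 for Rps4l, -0.093 for Rps4x and -0.013 for Rps6. The cause was not tested.

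No paired analysis was possible because the labels give animal numbers and no replicate numbers shared between groups. With 2 libraries in 3 of the 4 groups, the precision within a sex is limited, and leaving out a library there leaves a lone one that is assumed to vary like the others. Fragment counts were not used here, so no counting error is given.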
